A study of Mus musculus with 4 samples.

Results

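Alveolar type 1 cell genes were followed in mouse lung carrying 4T1 metastases, 4T1 being a triple-negative breast cancer (TNBC) cell line of the mouse. They comprised 10 genes found by symbol among the 56748 genes of the deposited table: Ager, Hopx, Rtkn2, Aqp5, Pdpn, Clic5, Akap5, Emp2, Cldn18 and Gprc5a. The rule was a list of cell type markers by name and took no measured value as input. The list was, however, chosen with earlier results of these data known. All 10 passed the filter on low counts and were tested.

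Female BALB/cJ mice had been injected through the tail vein with luciferase-expressing 4T1 cells. The control mice received saline (PBS in the sample labels), and the treated mice received cmLumiOpto, a luciferase-driven mitochondrial gene therapy carried by an antibody-tagged exosome-associated virus, together with the PARP inhibitor olaparib, for 3 weeks (cmLumi-Olap in the labels), with the luciferase substrate ViviRen given to produce the light. Bulk RNA was sequenced in 2 saline libraries and 2 cmLumiOpto/PARPi libraries. The labels name tumour cells taken out of the lungs, while the methods name lung tissue with metastases, and alveolar genes were present in all 4 libraries. The labels number the samples but do not state that each came from a separate mouse, so p-values measure the spread between these libraries. Library totals were 15263375 to 16755228 counts, so that 3 counts, taken as the smallest detectable level, corresponded to 0.173 to 0.204 counts per 1000000 counts (CPM, scaled with edgeR's TMM factors). This floor covers counting error only, and the libraries of a group differed by more than that: chi-square per degree of freedom between libraries was 25.4 in the saline group and 45.4 in the treated group. Mitochondrial genes took 1.13% and 1.17% of the counts of the saline libraries and 2.2% and 1.34% of those of the treated libraries, and their part in the results was not tested. In these bulk samples a difference in the number of cells of a type and one in RNA per cell cannot be told apart.

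Alveolar type 1 cells are the flat epithelial cells that cover most of the gas exchange surface of the lung. They lie against the capillary endothelium over a shared basement membrane, seal the surface with tight junctions, and move water and ions. Type 2 cells make surfactant and are the progenitors that replace type 1 cells after injury. Type 1 cells are defined by surface and transport proteins such as the receptor encoded by Ager, the water channel Aqp5 and podoplanin, and their fate depends on the transcription factor NKX2-1 and on YAP/TAZ acting with TEAD factors.

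The alveolar type 1 genes were present in the saline libraries and, except Emp2 and Pdpn, stood higher on average by 1.70-fold or more after treatment, without passing the adjusted test. All 10 genes had a positive log2 fold change, cmLumiOpto/PARPi over saline, with a median of 1.24 beside a median of 0.022 over the 15167 genes tested. The largest ratios were those of Ager, Cldn18, Hopx and Aqp5, whose treated means were 3.31 to 3.81 times the saline means, while Emp2 stood at 1.05 times. None of the 10 passed an adjusted p of 0.05 in edgeR's quasi-likelihood test (adjusted p = 0.142 to 0.771), and 0% of all tested genes did. With DESeq2, 2 of the 10 passed, beside 981 of all 15167 genes. An unadjusted p under 0.05 in edgeR's test was reached by 5 of the 10. Among all genes, 9.21% had an unadjusted p under 0.05 and were higher after treatment. Each treated library exceeded each saline library for 8 of the 10 genes, all but Pdpn and Clic5, against 27.4% of all tested genes, and none of the 10 lay below, against 27.8%. With 2 libraries against 2 the smallest two-sided exact permutation p is 0.333.

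**Figure D1:**
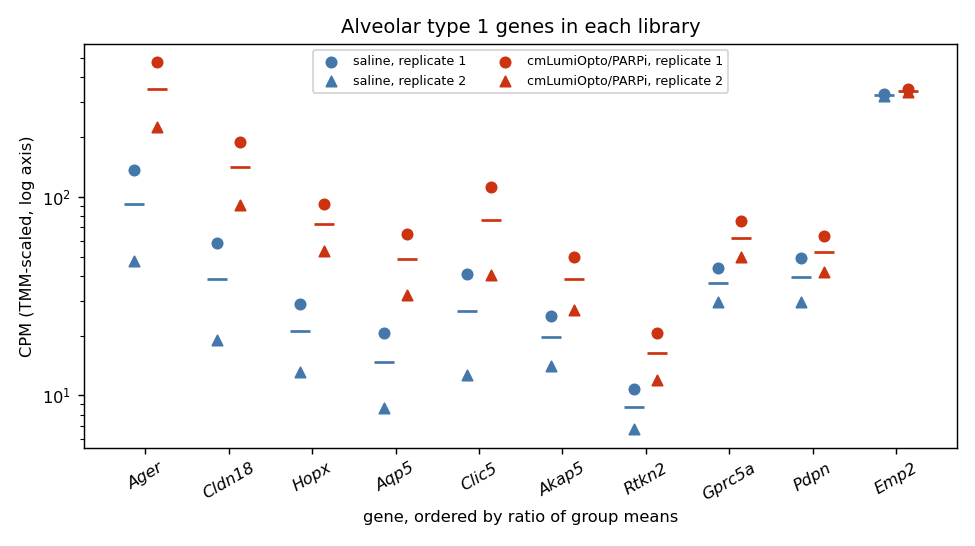
Level of each alveolar type 1 gene in each library. The vertical axis is CPM on a log scale, points are libraries (circles replicate 1, triangles replicate 2, blue saline, red cmLumiOpto/PARPi) and short lines are group means. For 8 of the 10 genes both red points lie above both blue points, the groups overlap for Clic5 and Pdpn, and all 4 Emp2 points lie between 320.0 and 348 CPM.

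The promoters of Ager, Cldn18 and Hopx, whose levels differed most between the groups, and of Emp2, whose level differed least, are shown so that the members can be compared in sequence. RefSeq promoter windows on GRCm38.p6, from 250 bases before to 50 bases after a start site, were matched for 8 of the 10 genes, in 10 windows. They were searched on both strands for the TEAD core GGAATG and for CTCAAG, a core of NKX2-1 sites. The TEAD core was in 0 of the 10 windows, against 14.7% of all 32851 windows. CTCAAG was in both Hopx windows and in no window of the other 7 genes, against 15.9% of all windows. In the first Hopx window the match is on the opposite strand, its first base 112 bases before the start site, and it is printed in capitals. These are matches of letters and say nothing about binding. The 250 bases before the start site, 5′ to 3′ on the gene's strand, were as follows.
Ager, chr17:34597600-34597849, plus strand: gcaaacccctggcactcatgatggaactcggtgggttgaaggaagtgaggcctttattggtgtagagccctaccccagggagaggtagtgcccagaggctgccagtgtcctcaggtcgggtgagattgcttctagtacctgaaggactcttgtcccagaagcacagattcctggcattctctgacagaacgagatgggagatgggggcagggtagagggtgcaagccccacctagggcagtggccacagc
Cldn18, upstream start site, chr9:99717268-99717517, minus strand: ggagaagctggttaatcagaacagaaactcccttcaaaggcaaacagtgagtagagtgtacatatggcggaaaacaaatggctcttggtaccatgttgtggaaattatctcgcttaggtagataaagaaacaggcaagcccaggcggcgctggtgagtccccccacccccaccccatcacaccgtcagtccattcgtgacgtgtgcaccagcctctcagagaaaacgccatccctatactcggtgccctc
Hopx, upstream start site, chr5:77115124-77115373, minus strand: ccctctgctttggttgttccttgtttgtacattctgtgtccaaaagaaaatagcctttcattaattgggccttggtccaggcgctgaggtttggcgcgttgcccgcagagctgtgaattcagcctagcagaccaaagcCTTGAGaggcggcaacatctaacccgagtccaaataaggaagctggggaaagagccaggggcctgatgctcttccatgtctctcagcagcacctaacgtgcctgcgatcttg
Emp2, chr16:10313969-10314218, minus strand: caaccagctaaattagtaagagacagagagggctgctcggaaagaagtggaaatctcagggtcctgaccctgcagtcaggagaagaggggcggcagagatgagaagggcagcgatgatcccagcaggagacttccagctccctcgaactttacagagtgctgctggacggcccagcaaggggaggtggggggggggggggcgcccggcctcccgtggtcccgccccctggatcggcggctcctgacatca
The GC content of the whole windows was 58.3% for Ager, 52% for Cldn18, 53% for Hopx and 65.7% for Emp2. Counts per gene do not separate the start sites of Hopx or of Cldn18.

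Ager encodes the receptor for advanced glycation end products, the most abundant surface receptor of type 1 cells. It lies on chromosome 17 from 34816836 to 34819910 in the deposited table (ENSMUSG00000015452), whose positions follow the build named mm39 in the processing notes. Ager had 136 and 47.6 CPM in saline replicates 1 and 2, and 474 and 225 CPM in cmLumiOpto/PARPi replicates 1 and 2. Each treated library exceeded each saline library, the lower treated library being 1.65 times the higher saline library. The saline libraries themselves differed 2.86-fold and the treated libraries 2.11-fold. The log2 fold change was 1.93 ± 0.57 (SE, n = 2 per group), with an adjusted p of 0.166 in edgeR's quasi-likelihood test.

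Cldn18, on chromosome 9 from 99571514 to 99599320 (ENSMUSG00000032473), encodes the claudin of alveolar tight junctions, which type 1 and type 2 cells both make. It had 58.2 and 19.1 CPM in the saline libraries and 189 and 91.2 CPM in the cmLumiOpto/PARPi libraries. The groups did not overlap, and the libraries stood in the same order as for Ager. The log2 fold change was 1.86 ± 0.58 (SE, n = 2 per group; edgeR adjusted p = 0.176). The ratio of Ager to Cldn18 CPM was 2.34 and 2.49 under saline and 2.50 and 2.47 after treatment. It thus moved 1.07-fold over the 4 libraries, while each gene moved 9.98-fold (Ager) or 9.93-fold (Cldn18).

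Water and ion handling was represented by Aqp5, the apical water channel on chromosome 15 from 99488663 to 99492710 (ENSMUSG00000044217), and Clic5. Aqp5 had 20.7 and 8.65 CPM in the saline libraries and 65.1 and 32.1 CPM after treatment. The groups did not overlap, and the log2 fold change was 1.73 ± 0.50 (SE, n = 2 per group; edgeR adjusted p = 0.163). Clic5, a chloride intracellular channel family member tied to the cortical actin cytoskeleton, lies on chromosome 17 from 44445659 to 44591059 (ENSMUSG00000023959). It had 40.6 and 12.7 CPM in the saline libraries and 112 and 40.6 CPM after treatment. Here treated replicate 2 equalled saline replicate 1 to within 1% (ratio 0.998), so that the groups touched, and the log2 fold change of 1.52 ± 0.66 had an edgeR adjusted p of 0.258. Scaled by RLE size factors or by library totals alone, the treated Clic5 values lay above the saline values, which brought the count of genes without overlap from 8 to 9.

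Hopx, an atypical homeodomain protein that does not itself bind DNA and marks type 1 cells, lies on chromosome 5 from 77234835 to 77262968 (ENSMUSG00000059325). It had 28.9 and 13.1 CPM in the saline libraries and 92.3 and 53.1 CPM after treatment. Its groups were the most widely separated of the 10, the lower treated library being 1.84 times the higher saline library. The log2 fold change was 1.79 ± 0.44 (SE, n = 2 per group), with the smallest adjusted p of the 10 genes (0.142, edgeR). Hopxos, a long noncoding RNA transcribed from the other strand, overlaps it and held at most 6 counts in a library. Whether the counting used strand is not given in the sources used here.

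Akap5, Rtkn2 and Gprc5a differed by less between the groups. Akap5, which anchors protein kinase A at the membrane, lies on chromosome 12 from 76371665 to 76380927 (ENSMUSG00000021057). It had 25.1 and 14.0 CPM in the saline libraries and 49.9 and 26.8 CPM after treatment, a log2 fold change of 0.97 ± 0.39 (n = 2 per group; edgeR adjusted p = 0.237). Rtkn2, on chromosome 10 from 67815400 to 67895570 (ENSMUSG00000037846), had 10.8 and 6.75 CPM in the saline libraries and 20.7 and 11.9 CPM after treatment. For both genes the lower treated library exceeded the higher saline library only slightly, 1.07-fold for Akap5 and 1.10-fold for Rtkn2. The log2 fold change of Rtkn2 was 0.89 ± 0.37 (n = 2 per group; edgeR adjusted p = 0.246). Gprc5a, a retinoic acid-induced orphan receptor of lung epithelium on chromosome 6 from 135042649 to 135061707 (ENSMUSG00000046733), had 43.6 and 29.5 CPM in the saline libraries and 75.1 and 49.5 CPM after treatment. Its groups did not overlap, with a log2 fold change of 0.77 ± 0.28 (n = 2 per group; edgeR adjusted p = 0.205).

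Pdpn and Emp2 stood apart from the other members. Pdpn encodes podoplanin, a mucin-like membrane protein that is also made by lymphatic endothelium, mesothelium and some fibroblasts, and lies on chromosome 4 from 142994001 to 143026134 (ENSMUSG00000028583). It had 49.4 and 29.6 CPM in the saline libraries and 63.2 and 41.9 CPM after treatment, so that the groups overlapped. The log2 fold change was 0.41 ± 0.31 (n = 2 per group; edgeR adjusted p = 0.472). Emp2, a tetraspan protein of epithelial membranes on chromosome 16 from 10099613 to 10131832 (ENSMUSG00000022505), had 329 and 320.0 CPM in the saline libraries and 348 and 336 CPM after treatment. The values did not overlap, but they spanned 1.09-fold in all, with a log2 fold change of 0.08 ± 0.13 (n = 2 per group; edgeR adjusted p = 0.771). Emp2 made up 63.9% of the summed CPM of the 10 genes in saline replicate 2 and 23.3% in treated replicate 1.

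The other cells that make podoplanin gave different pictures by their markers. The counts below stand beside 27.4% higher and 27.8% lower without overlap among all tested genes. Of 7 lymphatic endothelial markers, 1 (Lyve1) was higher in both treated libraries and 6 overlapped, with a median log2 fold change of 0.63. Their summed level was 41.7 to 69.5 CPM in the saline libraries and 62.4 to 103 CPM in the treated libraries. Their mean log2 CPM was 2.22 and 0.060 in saline replicates 1 and 2, a wider gap than the sums show. In the treated libraries it was 2.67 and 1.79. Prox1, the lymphatic master transcription factor, was near the detection limit, with 0.941 and 0.204 CPM in the saline libraries and 1.21 and 0.782 CPM after treatment, whereas Lyve1, a hyaluronan receptor also made by some macrophages, had 28.0 and 25.6 against 48.2 and 34.7 CPM. Of 8 mesothelial markers, 0 were higher without overlap, 1 (Wt1, named after its values were seen) was lower and 7 overlapped, with a median log2 fold change of 0.70, their summed level being 245 to 361 CPM in the saline and 340 to 385 CPM in the treated libraries. Msln, the mesothelin gene, had 104 and 204 CPM in the saline libraries and 151 and 201 CPM after treatment. The mean log2 CPM over the 8 mesothelial markers was 3.58 and 3.73 in the saline libraries. In treated replicates 1 and 2 it was 4.78 and 2.89, a wider gap between the treated libraries than their sums show. Of 8 fibroblast markers, 7 were lower in both treated libraries and 1 was higher, with a median log2 fold change of -0.89, and their summed level was 3584 to 5170 CPM in the saline and 1703 to 1896 CPM in the treated libraries. The part of these cells in the Pdpn values was not tested.

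**Figure D2:**
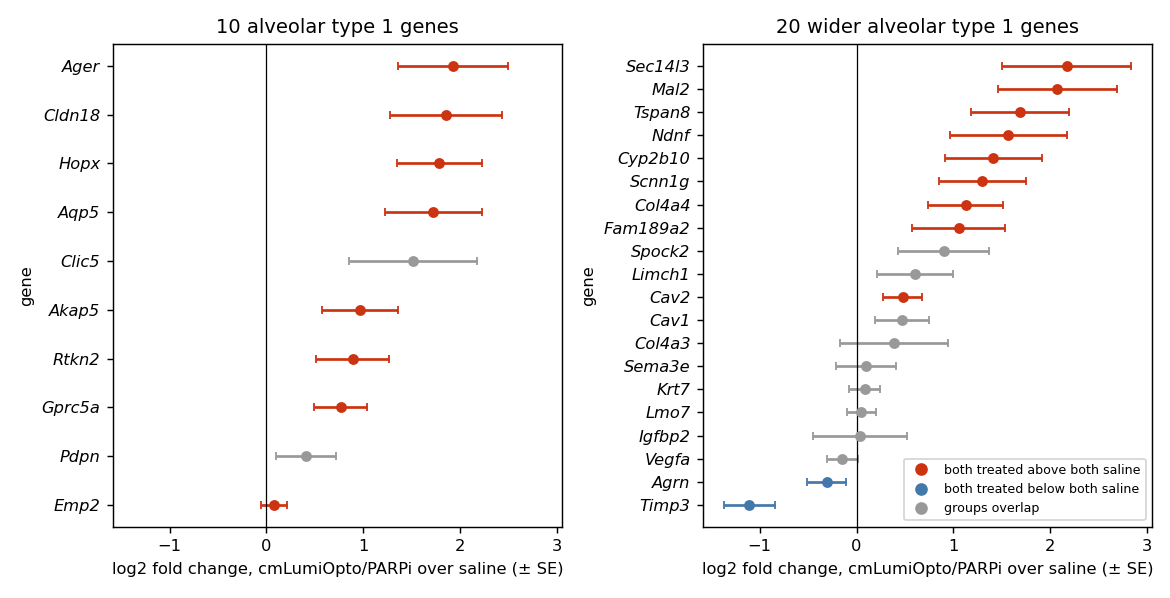
Log2 fold change, cmLumiOpto/PARPi over saline, with its standard error for the 10 alveolar type 1 genes (left) and 20 further genes linked to type 1 cells (right). Red marks genes whose treated values all exceeded the saline values, blue genes whose treated values were all lower, and grey genes whose groups overlapped. The left values run from 0.08 for Emp2 to 1.93 for Ager, and the right values from -1.11 for Timp3 to 2.17 for Sec14l3.

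Libraries of the same group also differed for these genes. Saline replicate 2 was the lowest and cmLumiOpto/PARPi replicate 1 the highest library for each of the 10 genes. Saline replicate 1 exceeded saline replicate 2 by at least 2-fold for 5 of the 10 genes, Ager, Hopx, Aqp5, Clic5 and Cldn18, against 7.66% of all tested genes. Replicate 1 exceeded replicate 2 in both groups for all 10 genes, against 30.1% of all tested genes. The 5 genes with the widest gap between the saline libraries were also those whose treated mean was at least 2 times the saline mean, which 7.25% of tested genes reached, and both measures use the saline libraries. Without saline replicate 2 the median log2 fold change of the 10 genes was 0.74, without treated replicate 1 it was 0.52, and without saline replicate 1 it was 1.94. All 10 log2 fold changes stayed above 0 in these fits and in that without treated replicate 2 (median 1.69), and none passed an adjusted p of 0.05 in any of the 4.

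**Figure D3:**
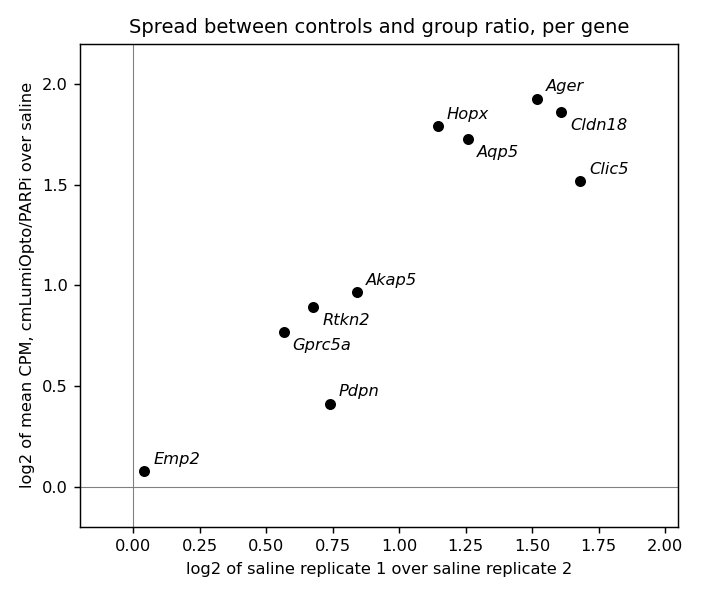
Each point is an alveolar type 1 gene. The horizontal axis is the log2 ratio of the saline libraries to each other and the vertical axis the log2 ratio of group means, both from CPM, and the saline libraries enter both axes. Ager, Cldn18, Hopx, Aqp5 and Clic5 lie at the upper right, with ratios of 2.21 to 3.21 between the saline libraries and 2.87 to 3.81 between the groups, and Emp2 lies near the origin.

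Per kilobase of the gene length given in the table, Ager had the highest mean level over the 4 libraries, 103 CPM per kilobase (range 22.2 to 222). Emp2 followed with 38.6 CPM per kilobase (37.0 to 40.3), and exceeded Ager in saline replicate 2. Hopx (30.9), Pdpn (25.3), Gprc5a (23.7) and Cldn18 (20.1) came next with overlapping ranges, and their order changed between libraries. Aqp5 (12.2 CPM per kilobase) lay below Cldn18 in all 4 libraries and above Clic5 (5.33) in all 4. Clic5 and Akap5 (4.24) exchanged places in saline replicate 2, and Rtkn2 was the lowest in mean level (2.26 CPM per kilobase, range 1.22 to 3.73).

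Across all tested genes the log2 fold change fell with gene length, from a median of 0.31 in the shortest of 5 equal length classes to -0.27 in the longest (Spearman correlation of -0.37 across genes, which are not independent replicates). The members lay in all 5 classes. Hopx (1516 bases), Pdpn (1817 bases) and Gprc5a (2083 bases) were in the shortest class, and Clic5 (9669 bases) and Emp2 (8644 bases) in the longest. Within the shortest class the log2 fold changes were 1.79, 0.41 and 0.77, and within the longest 1.52 and 0.08, so that values differed within a class. The part of length in these values was not tested.

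A further list of 20 genes linked to type 1 cells in general knowledge of the lung was described in the same way. Of these 20 genes, 9 were higher in both treated libraries without overlap, 2 (Timp3 and, named after its values were seen, Agrn) were lower and 9 overlapped. Among all tested genes 27.4% were higher and 27.8% lower without overlap. The 20 genes had a median log2 fold change of 0.54. An unadjusted p under 0.05 was reached by 7 upward and 1 downward, beside 9.21% and 12% of all tested genes. Of the 20, 0 passed the adjusted threshold in edgeR (smallest adjusted p = 0.139). Sec14l3, a lipid-binding protein gene, had 23.1 and 7.22 CPM in the saline libraries and 101 and 36.6 CPM after treatment (log2 fold change 2.17 ± 0.67). Mal2, a transcytosis protein gene, had 15.2 and 5.72 CPM against 64.6 and 24.1 CPM (2.08 ± 0.62), and the tetraspanin gene Tspan8 had 10.8 and 5.79 CPM against 38.3 and 15.6 CPM (1.69 ± 0.51). These genes repeated the order of libraries seen for Ager. Col4a4, a collagen IV chain of the alveolar basement membrane, had 9.59 and 5.11 CPM in the saline libraries and 19.3 and 12.8 CPM after treatment (log2 fold change 1.13 ± 0.39). Timp3, a matrix metalloproteinase inhibitor also made by fibroblasts and endothelium, was lower after treatment, with 184 and 123 CPM in the saline libraries and 84.2 and 58.0 CPM after treatment (-1.11 ± 0.26).

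The fate regulators of the alveolar epithelium differed in both directions. Of 14 such genes, 4 (Nkx2-1, Bmp4 and, named after their values were seen, Foxa1 and Foxa2) were higher in both treated libraries. Lower were 7 (Tead1, Sox9, Klf4 and, likewise named afterwards, Yap1, Wwtr1, Tead4 and Etv5), and 3 overlapped. Over all tested genes, 27.4% were higher and 27.8% lower without overlap. The 14 genes had a median log2 fold change of -0.32, and 0 passed the adjusted threshold in edgeR. At an unadjusted p under 0.05, 2 were higher and 6 lower, beside 9.21% and 12% of all tested genes. Nkx2-1, the lung epithelial homeodomain factor, had 6.96 and 1.98 CPM in the saline libraries and 25.5 and 11.3 CPM after treatment, a log2 fold change of 2.04 ± 0.66 (n = 2 per group; edgeR adjusted p = 0.182). The ratio of Ager to Nkx2-1 CPM was 19.6 and 24.1 under saline and 18.6 and 19.9 after treatment, a span of 1.29-fold. Bmp4, a secreted growth factor, had 4.45 and 2.45 CPM against 15.4 and 6.56 CPM (log2 fold change 1.66 ± 0.52). Tead1, the DNA-binding partner of YAP and TAZ, had 139 and 151 CPM in the saline libraries and 70.2 and 78.0 CPM after treatment, a log2 fold change of -0.97 ± 0.14 (n = 2 per group; edgeR adjusted p = 0.138). Wwtr1, which encodes TAZ, had 345 and 499.6 CPM against 211 and 302 CPM (-0.72 ± 0.26), and Tead4 had 13.7 and 14.5 CPM against 8.69 and 10.3 CPM (-0.57 ± 0.23). Yap1 had 191 and 176 CPM against 152 and 159.6 CPM, a log2 fold change of -0.24 ± 0.13. Sox9, a progenitor factor of the distal lung, had 64.2 and 73.6 CPM against 38.6 and 48.3 CPM (-0.66 ± 0.17), and Klf4, a stress-responsive zinc finger factor, had 29.6 and 51.1 CPM against 23.1 and 19.3 CPM (-0.93 ± 0.29). Their libraries did not follow the order of Ager, since saline replicate 2 was the highest for all of Tead1, Sox9 and Klf4.

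Most type 2 cell markers were higher in the libraries in which the type 1 genes were higher. Without overlap, 27.4% of all tested genes were higher and 27.8% lower, and 9.21% and 12% had an unadjusted p under 0.05. Of 14 type 2 markers, 12 were higher in both treated libraries and 2 (Abca3, a lipid transporter, and Etv5, a transcription factor that is also in the regulator list, both named after their values were seen) were lower, with a median log2 fold change of 1.97 and 0 past the adjusted threshold in edgeR (12 higher and 1 lower at an unadjusted p under 0.05). Sftpc, the surfactant protein that defines type 2 cells, had 1020 and 176 CPM in the saline libraries and 6153 and 2092 CPM after treatment (log2 fold change 2.79 ± 0.91, n = 2 per group; edgeR adjusted p = 0.183). The summed CPM of the 14 genes was 1793 to 3731 in the saline libraries and 5784 to 12705 in the treated libraries. The summed CPM of the 10 type 1 genes was 742 and 501 in the saline libraries and 1490.3 and 908 after treatment. The ratio of the type 1 to the type 2 sum was 0.199 and 0.279 under saline and 0.117 and 0.157 after treatment, lower in both treated libraries. A single gene weighed heavily in each sum, Emp2 in the type 1 sum and Lyz2, a lysozyme gene that myeloid cells also express, in the type 2 sum, where it took 63.6% in saline replicate 2 and 28.5% in treated replicate 1. After these values were seen, the ratio was computed again without them. Without Emp2 it was 0.111 and 0.101 under saline and 0.0899 and 0.0988 after treatment, a span of 1.23-fold. Without both Emp2 and Lyz2 it was 0.203 and 0.277 under saline and 0.126 and 0.171 after treatment, a span of 2.21-fold. The treated values were the lower ones in each version, but how far apart they lay depended on which genes were summed. Ager relative to Sftpc was 0.134 and 0.270 under saline and 0.0771 and 0.108 after treatment. Relative to Lamp3 it was 7.98 and 12.5 against 4.61 and 7.49, also lower after treatment. Relative to Sftpb it was 0.658 and 0.908 against 0.692 and 0.746, which overlapped, so the single-gene ratios depended on the type 2 gene taken.

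**Figure D4:**
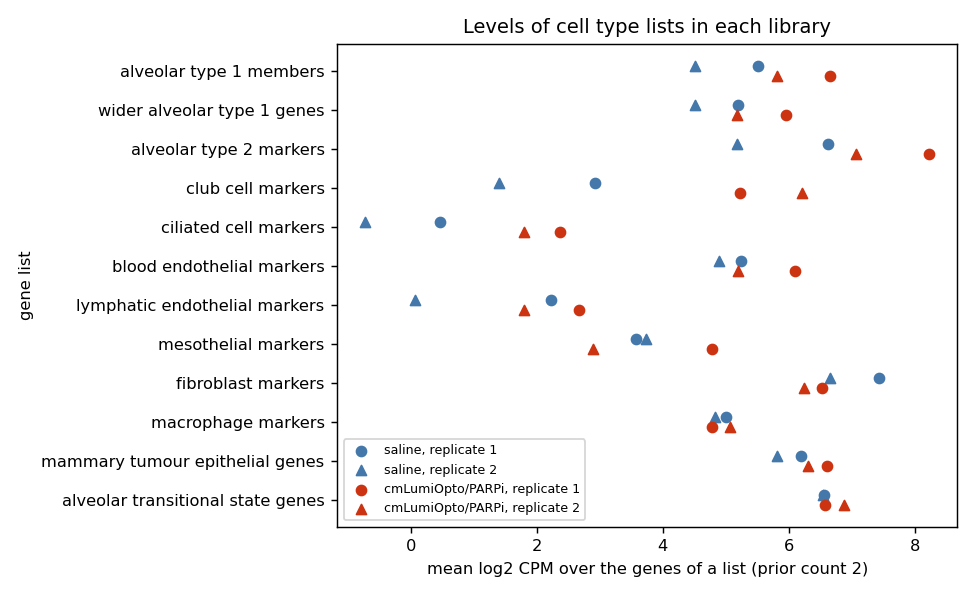
Mean log2 CPM over the genes of each list, per library (circles replicate 1, triangles replicate 2, blue saline, red cmLumiOpto/PARPi). The type 1 genes had 5.51 and 4.51 under saline and 6.65 and 5.82 after treatment, the type 2 markers 6.62 and 5.17 against 8.23 and 7.06, and both airway lists lay higher in the treated libraries, while the tumour epithelial genes ran from 5.81 to 6.61 over all libraries.

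Airway epithelial markers were also higher after treatment. The share over all tested genes was 27.4% for higher without overlap and 9.21% for higher with an unadjusted p under 0.05. All 8 club cell markers and all 8 ciliated cell markers were higher in both treated libraries, with median log2 fold changes of 3.49 and 2.29 and 0 past the adjusted threshold in edgeR (8 and 6 at an unadjusted p under 0.05). Summed club marker levels were 99.8 to 1191 CPM in the saline and 3262 to 5896 CPM in the treated libraries, and summed ciliated marker levels 7.77 to 15.2 CPM and 40.7 to 71.9 CPM. Scgb1a1, the club cell secretoglobin, had 1088 and 74.7 CPM in the saline libraries and 5305 and 2794 CPM after treatment. Foxj1, the transcription factor of ciliated cells, had 4.08 and 1.16 CPM against 10.7 and 7.58 CPM. Tppp3, a tubulin-binding protein, had 5.89 and 4.02 CPM against 40.6 and 19.1 CPM. Some ciliated markers were under the floor of 3 counts in saline replicate 2, where Dnah5 had 0, Tekt1 1 and Rsph1 2 counts. The club marker Bpifa1 had 2 and 11 counts in the saline and 32 and 1048 in the treated libraries. Bpifb1, another club marker, had 5 and 7 against 12 and 256 counts. These low or uneven genes were named after their values were seen.

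Capillary endothelium, the partner of type 1 cells at the gas exchange surface, had markers that differed among themselves. Of 10 blood endothelial markers, 4 (Cldn5, Ednrb, Car4 and Gpihbp1, named after their values were seen) were higher in both treated libraries, 0 were lower and 6 overlapped, with a median log2 fold change of 0.63 and summed levels of 499.9 to 612 CPM in the saline and 539.8 to 934 CPM in the treated libraries. Unadjusted p was under 0.05 for 3 of them, all higher, and 0 passed the adjusted threshold in edgeR. Over all tested genes, 27.4% were higher and 27.8% lower without overlap, and 9.21% were higher with an unadjusted p under 0.05. Car4, a carbonic anhydrase of alveolar capillaries, had 7.59 and 7.29 CPM in the saline libraries and 28.7 and 13.4 CPM after treatment (log2 fold change 1.5 ± 0.39). Gpihbp1, the capillary anchor of lipoprotein lipase, had 33.3 and 24.8 CPM against 78.6 and 48.9 CPM (1.13 ± 0.28). Over the 10 markers the log2 fold changes ran from -0.30 (Kdr) to 1.5 (Car4), and that of Cdh5 was 0.010. Kdr and Cdh5 were likewise named after their values were seen, and their groups overlapped. Pecam1, a junction protein of all endothelium, had 144 and 118 CPM in the saline libraries and 208 and 132 CPM after treatment. Ager per Pecam1 was 0.947 and 0.403 under saline and 2.28 and 1.70 after treatment, which did not overlap. Such a single-gene ratio depends on the endothelial gene taken. Treated replicate 1 over saline replicate 1 was 1.45 for Pecam1, 3.79 for Car4 and 3.49 for Ager. Treated replicate 2 over saline replicate 2 was 1.12, 1.84 and 4.73 in the same order.

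Genes of the tumour epithelial list overlapped for the most part. Krt7 is also in the wider type 1 list, and Krt8, Krt18 and Cldn4 are also in the transitional list. The list therefore does not separate tumour from lung epithelium. Of the 11 genes of the list, 10 were tested. Of these, 2 (the claudin genes Cldn3 and Cldn7) were higher in both treated libraries and 6 overlapped. Lower were 2 (Krt14 and Cd276, the antigen of the targeting antibody), these 4 being named after their values were seen. Over all tested genes, 27.4% were higher and 27.8% lower without overlap, so these counts did not stand out. The median log2 fold change of the list was 0.064. Its summed level was 3195 to 3503 CPM in the saline libraries and 2848 to 3949 CPM in the treated libraries. Krt8, a keratin of simple epithelia and the most abundant of the list, had 1144 and 1560 CPM in the saline libraries and 998 and 1640 CPM after treatment. Krt5, a basal cell keratin, was too low to test, at 0.314 and 0 CPM in the saline libraries and 2.59 and 0.181 CPM after treatment. What part the share of tumour, airway or alveolar tissue in each piece of lung had in the type 1 values was not tested.

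By the distance of centred log2 CPM values over the 4 libraries, the genes most like Ager were Fcgbp (root mean square distance 0.032 on the log2 scale), Cldn18 (0.039), Syt15 (0.041), Cyp4b1 (0.085) and Slc6a14 (0.087). Fcgbp and Syt15 were low, at 0.409 to 5.47 and 0.545 to 7.02 CPM over the libraries, so their closeness rests on few counts. Cyp4b1, a lung monooxygenase gene, had 25.8 and 10.02 CPM in the saline libraries and 101 and 42.3 CPM after treatment. In all, 41 genes lay within 0.2 of Ager, and with 4 libraries such likeness is a description. Of the other members, Aqp5 (0.161) and Hopx (0.189) lay within that distance, Clic5 (0.271) just outside, and Akap5 (0.587), Rtkn2 (0.656), Gprc5a (0.733), Pdpn (0.859) and Emp2 (1.16) farther off.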

How the data were processed

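RNA of lung with 4T1 metastases was sequenced at a service provider from poly-A selected libraries. The authors mapped the reads with HISAT2 and deposited read counts per gene, not normalized. Their methods name GRCm38, while the submitters' processing notes name mm39. The deposited positions of all 10 members differed from those in GENCODE M21, an annotation of GRCm38, so positions from the table are given as those of mm39. The counter, its strand setting and whether the kit marked strand are not given in the sources used here. Of 56748 genes, 31313 had 0 counts in every library.

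From the counts, CPM, log2 CPM (prior count 2) and log2 fold changes were computed with edgeR 4.0.16 in R 4.3.3 (TMM, filterByExpr with minimum count 10, glmQLFit with the legacy option and glmQLFTest, Benjamini-Hochberg adjustment over the 15167 genes that passed, threshold 0.05). The standard error is the size of the log2 fold change over the square root of F. Groups and replicate numbers come from the sample titles, and nothing in the labels ties same-numbered samples. Alternatives were DESeq2 1.42.0, other normalizations, filters and quasi-likelihood options, a replicate block, and leaving out each library. Sums without Emp2 or Lyz2 were added after the data were seen. The code was tested on simulated counts.

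The members and all lists (wider type 1, fate regulators, type 2, transitional, club, ciliated, lymphatic, blood endothelial, mesothelial, fibroblast, macrophage, tumour epithelial) were chosen with earlier results of these data known. Named genes were the 10 members, the 5 genes with the smallest unadjusted p of the wider and regulator lists, the first and the most abundant gene of every other list, and the 5 genes most like Ager. Some genes are in more than one list (Etv5, Krt8 and others). Lists were described by counts and medians, without a set test.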

Additional observations from a re-analysis of the deposited data

How the results depend on the processing

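The direction of all 10 log2 fold changes was the same under each of the alternatives run, and of 110 refitted values 92 stayed on the same side of the threshold and 18 passed it. With the replicate number as a block (replicate block), 1822 of 15167 genes passed an adjusted p of 0.05. The log2 fold changes of the 8 members past it were 2.02 (Ager), 1.97 (Cldn18), 1.84 (Hopx), 1.77 (Aqp5), 1.57 (Clic5), 0.96 (Akap5), 0.88 (Rtkn2) and 0.76 (Gprc5a). The differences between replicates 1 and 2 correlated between the groups (Pearson's r = 0.357 across genes, which are not independent replicates), but no label ties same-numbered samples, so this fit stays an alternative. Without the filter on low counts 2000 of 25435 genes passed. The same 8 members were among them and had 1.92 (Ager), 1.85 (Cldn18), 1.78 (Hopx), 1.72 (Aqp5), 1.51 (Clic5), 0.96 (Akap5), 0.88 (Rtkn2) and 0.76 (Gprc5a). With DESeq2 981 of 15167 genes passed, with Hopx at 1.79 and Aqp5 at 1.73. The cause of these differences was not tested. Leaving out each library gave 0 to 31 genes past the threshold, and log2 fold changes of 1.29 to 2.86 (Ager), 1.23 to 2.86 (Cldn18), 1.31 to 2.46 (Hopx), 1.13 to 2.47 (Aqp5), 0.60 to 2.58 (Clic5), 0.45 to 1.43 (Akap5), 0.44 to 1.26 (Rtkn2), 0.43 to 1.06 (Gprc5a), 0.073 to 0.81 (Pdpn) and 0.041 to 0.081 (Emp2), with a lone library assumed to vary like the other group. The ratio of the type 1 to the type 2 sum, with genes left out after the values were seen, was 0.111 and 0.101 in the saline and 0.0899 and 0.0988 in the treated libraries without Emp2, and 0.364 and 0.768 against 0.164 and 0.272 without Lyz2. Taken from mean log2 CPM in place of sums, with Emp2 included, the type 1 to type 2 ratio was 0.465 and 0.630 in the saline and 0.335 and 0.422 in the treated libraries. Depth did not limit these genes, none of which had under 99 counts in a library.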

Other observations

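Genes of the transitional state, which type 2 cells pass through on the way to type 1 cells and which tumour epithelium also expresses, mostly overlapped between the groups. Of 12 such genes, 3 (Sfn, Itgb6 and Tnip3) were higher in both treated libraries, 2 (Hbegf and Clu) were lower and 7 overlapped. Over all tested genes, 27.4% were higher and 27.8% lower without overlap, so these counts did not stand out. An unadjusted p under 0.05 was reached by 0 upward and 2 downward, beside 9.21% and 12% of all tested genes. The 12 genes had a median log2 fold change of 0.086, and 0 of them passed the adjusted threshold in edgeR. Their summed level was 3463 to 4255 CPM in the saline libraries and 2937 to 4514 CPM in the treated libraries, and the most abundant of them was Krt8. The 5 genes without overlap were named after their values were seen.

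Most fibroblast markers were lower after treatment. Of 8 such genes 7 were lower in both treated libraries and 1 (Tcf21, a mesenchymal transcription factor, named after its values were seen) was higher. Over all tested genes, 27.8% were lower and 27.4% higher without overlap. At an unadjusted p under 0.05, 6 were lower and 1 higher, beside 12% and 9.21% of all tested genes. The 8 genes had a median log2 fold change of -0.89, and 0 of them passed the adjusted threshold in edgeR. Col1a1, the main fibrillar collagen chain, had 2064 and 1377 CPM in the saline libraries and 455 and 572 CPM in the treated libraries. Of 8 macrophage markers, 1 (Cd68) was higher, 1 (Mrc1) was lower and 6 overlapped, beside the same 27.4% higher and 27.8% lower. The median log2 fold change of these 8 was 0.26. Cd68, a lysosomal protein of macrophages, had 81.0 and 75.8 CPM in the saline libraries and 96.5 and 109 CPM in the treated libraries, and Mrc1, the mannose receptor, had 212 and 396 CPM against 137 and 154 CPM.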
